A study of Mus musculus with 16 samples.

Results

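The genes described here are 6 ubiquitin ligase genes linked to muscle atrophy (Fbxo32, Trim63, Fbxo30, Fbxo21, Fbxo31 and Traf6), the FoxO genes Foxo1 and Foxo3, the glucocorticoid-induced factor Klf15, and Cdkn1a, which encodes p21. They were chosen by symbol, and all 18 probes with one of the 10 symbols were taken, of 25697 probes for 16593 genes on the array. None of the 18 probes was called different between the genotypes, and the sharpest pattern was between mice of 1 genotype, where Fbxo31 and Foxo1 signals rose and fell together in the control mice (r = 0.98). That call was lost with Spearman's rho, with the mean of each gene's probes, and without any 1 of 6 of the 8 control mice. How often pairs of other genes correlate as closely was not computed.

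The samples were quadriceps femoris muscles of 16 male mice aged 22 months, 1 Illumina bead array per mouse. The 8 ATF4 mKO mice carried floxed Atf4 alleles, ATF4(L/L), and the MCK-Cre transgene. The 8 control mice were littermates with the same floxed alleles and no transgene, MCK-Cre(0/0). The MCK promoter drives Cre in striated muscle fibres and heart, so the other cells of a muscle keep Atf4. Signals are log2 values per probe as the authors deposited them, so a difference of 1 is a doubling of the signal, and values near 8.3 are the floor of the arrays. Levels of different probes are not comparable with each other, and in whole muscle fewer cells of a type and less RNA per cell cannot be told apart.

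Ubiquitin ligases choose the proteins that the proteasome degrades. In wasting muscle, FoxO transcription factors enter the nucleus when insulin and Akt signaling falls and induce Fbxo32 (atrogin-1) and Trim63 (MuRF1), the best known markers of atrophy. Glucocorticoids act on the same genes through their receptor and through Klf15. Cdkn1a is a p53 target that blocks the cell cycle, and in mouse muscle its forced expression is known to shrink fibres. ATF4 is a transcription factor of the integrated stress response and is known to raise Cdkn1a in immobilised and fasted mouse muscle.

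The start regions of 3 genes that the results turn on are shown first. They are the 250 bases before the RefSeq transcript start in mouse build GRCm38.p6, written 5′ to 3′ on the gene's strand, for Trim63 (chr4:134314870-134315119, plus strand), Foxo1 (chr3:52268087-52268336, plus strand) and Fbxo31 (chr8:121578807-121579056, minus strand). Capitals in the Trim63 region mark 2 adjoining matches, a palindrome bound by the glucocorticoid receptor and then FoxO letters on the opposite strand, and Foxo1 and Fbxo31, the pair that moved together, had no match.
Trim63: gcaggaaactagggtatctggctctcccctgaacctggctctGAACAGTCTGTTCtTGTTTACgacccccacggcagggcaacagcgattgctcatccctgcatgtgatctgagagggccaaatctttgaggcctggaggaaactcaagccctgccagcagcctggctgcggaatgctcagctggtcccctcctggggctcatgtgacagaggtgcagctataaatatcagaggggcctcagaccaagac
Foxo1: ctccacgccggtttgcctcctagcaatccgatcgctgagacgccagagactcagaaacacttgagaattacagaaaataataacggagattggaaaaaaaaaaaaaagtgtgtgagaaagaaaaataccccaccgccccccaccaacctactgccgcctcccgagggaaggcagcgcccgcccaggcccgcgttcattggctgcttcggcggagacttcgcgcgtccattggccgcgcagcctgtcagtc
Fbxo31: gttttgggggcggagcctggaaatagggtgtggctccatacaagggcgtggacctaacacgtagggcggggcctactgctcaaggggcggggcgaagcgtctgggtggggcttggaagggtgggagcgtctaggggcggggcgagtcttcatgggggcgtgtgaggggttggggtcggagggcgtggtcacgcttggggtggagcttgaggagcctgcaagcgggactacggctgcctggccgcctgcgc

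The motifs searched on both strands were the FoxO letters GTAAACA, the composite ATF4 letters TGATGNAA, and the glucocorticoid receptor palindrome, whose arms GNACA and TGTNC stand 3 bases apart. Of the members, 9 genes with 10 start regions were in the table, and Fbxo32 was not. The FoxO letters were in the Trim63 region alone, at 194 to 188 bases before the start, and in 3.17% of 32851 start regions of all genes. The palindrome was also in Trim63 alone, at 208 to 196 bases before the start, against 0.387% of all regions. The composite ATF4 letters were in none of the members' regions and in 3.45% of all. These are matches of letters and not measured sites.

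As a check of the labels, Atf4 signals averaged 10.45 ± 0.12 in the control group and 8.52 ± 0.05 in the ATF4 mKO group (SD, n = 8 each), and the groups did not overlap (10.26 to 10.57 against 8.44 to 8.61). Over the whole array, 25 probes (0.0973%) were called lower and 10 (0.0389%) higher in ATF4 mKO mice at an adjusted p of 0.1 or less in limma. Of the 18 member probes, 0 were called lower and 0 higher. At an unadjusted limma p under 0.05 there were 2 of 18 member probes, against 5.62% of all probes. The methods' t-test passed its unadjusted threshold of 0.025 at 1 of 18 member probes, against 2.85% of all. The genotypes overlapped at every member probe, and 0.101% of all probes had groups that did not overlap. The member probes were lower in ATF4 mKO mice at 7 and higher at 11, with a median change of 0.01, and the brighter 12849 probes of the array were lower at 6210 and higher at 6639, with a median change of 0.000911. Of the fast fibre markers that define this muscle, 0 of 7 measured genes were near the floor. Slow fibre markers had lower means in ATF4 mKO mice at 6 of 6 genes, 0 of them called. Their changes ran from -0.35 for Atp2a2 to -0.07 for Myh7, with a median of -0.33. The mean signal of these markers ran from 11.63 to 12.53 in control mice and from 11.07 to 12.55 in ATF4 mKO mice. Erythroid markers had lower means at 3 of 3 genes (changes of -0.44 for Hba-a1, -0.28 for Hbb-bt and -0.14 for Alas2) and endothelial markers at 5 of 5 (changes from -0.05 to -0.00306), 0 of them called. Their mean signals ran from 10.15 to 11.36 and from 8.73 to 8.84 in control mice, against 9.88 to 10.63 and 8.71 to 8.83 in the ATF4 mKO group. The part of fibre type, blood or vessels in the values below was not tested.

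**Figure D1:**
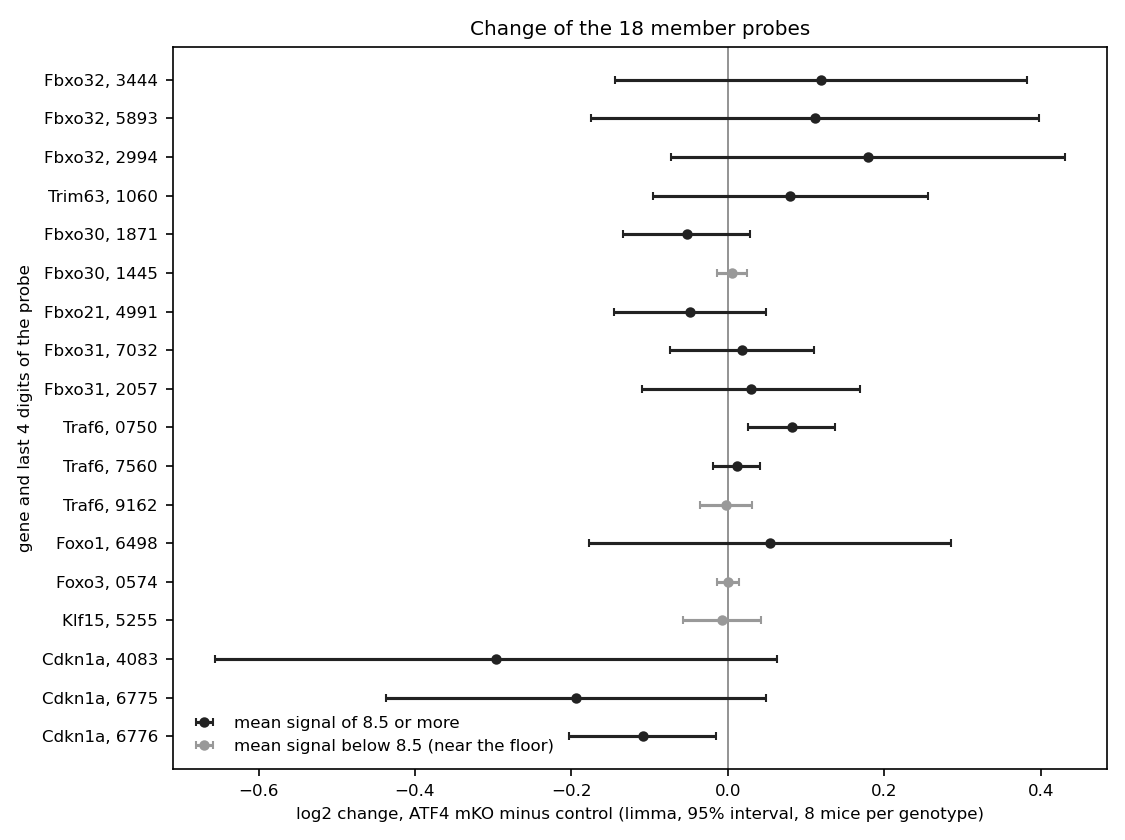
Change in log2 signal (ATF4 mKO minus control) of each of the 18 member probes, with the 95% interval from limma, 8 mice per genotype, labelled by gene and the end of the probe number. Grey marks the 4 probes with a mean signal under 8.5. Intervals cross 0 for all but 1 Traf6 and 1 Cdkn1a probe, and neither of these was called after adjustment.

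Fbxo32, the F-box subunit of the atrogin-1 ligase, had 3 probes. The brightest of them, ILMN_2873444, ran from 11.83 to 12.75 with a median of 12.21 in control mice, and from 12.06 to 12.67 with a median of 12.30 in ATF4 mKO mice. The ATF4 mKO range lay wholly inside the control range, and control mouse 3 was highest of all. The change was 0.12 (SE 0.12, 95% interval -0.14 to 0.38, limma adjusted p = 0.954), with 6 of 8 ATF4 mKO mice above the control mean. The other Fbxo32 probes had changes of 0.11 (ILMN_2715893) and 0.18 (ILMN_2752994). Pairs of the 3 probes correlated between mice at r between 0.93 and 0.99 in control mice and between 0.84 and 0.93 in ATF4 mKO mice, with some changes of order, such as ATF4 mKO mouse 3 being the lowest of its group on ILMN_2715893 only. The mice differed in Fbxo32 by more than the genotypes did.

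Trim63, the RING ligase MuRF1, which acts on proteins of the thick filament, had 1 probe (ILMN_3161060). It ran from 10.27 to 10.74 with a median of 10.59 in control mice, and from 10.33 to 10.86 with a median of 10.62 in ATF4 mKO mice. The groups overlapped over most of their range. The change was 0.08 (SE 0.08, 95% interval -0.10 to 0.26, limma adjusted p = 0.954), with 4 of 8 ATF4 mKO mice above the control mean.

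Fbxo30 encodes MUSA1, an F-box protein that BMP signaling represses in mouse muscle. Its brighter probe (ILMN_2431871) had a median of 9.46 in control mice (9.32 to 9.52) and 9.36 in ATF4 mKO mice (9.31 to 9.56). The change was -0.05 (SE 0.04, 95% interval -0.13 to 0.03, adjusted p = 0.924), with 6 of 8 ATF4 mKO mice below the control mean and the groups overlapping. The second Fbxo30 probe (ILMN_2861445) was at the floor, and the probes ran in opposite directions between mice, with r = -0.26 in control and -0.66 in ATF4 mKO mice.

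Fbxo21 encodes SMART, another FoxO-dependent F-box protein of mouse muscle. Its signal (ILMN_1244991) ran from 9.14 to 9.37 in control mice (median 9.26) and from 9.04 to 9.36 in ATF4 mKO mice (median 9.22), a change of -0.05 (SE 0.05, 95% interval -0.15 to 0.05, adjusted p = 0.951). The groups overlapped almost wholly.

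Fbxo31 encodes an F-box protein that directs cyclin D1 to degradation after DNA damage. On probe ILMN_2687032 it ran from 9.58 to 9.94 in control mice (median 9.71) and from 9.64 to 9.81 in ATF4 mKO mice (median 9.73). The means differed by 0.02 (SE 0.04, 95% interval -0.07 to 0.11, adjusted p = 0.989). Control mouse 3 was highest and control mouse 1 lowest of all 16 mice, so the control mice spanned the ATF4 mKO mice on both sides. The second Fbxo31 probe (ILMN_1252057) changed by 0.03, and the 2 Fbxo31 probes correlated at r = 0.82 among control mice and at r = 0.58 among ATF4 mKO mice.

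Traf6, a RING ligase that builds lysine-63-linked chains and activates NF-kappaB and autophagy, had the most regular difference among the ligases, on 1 of its 3 probes. Probe ILMN_2960750 ran from 9.19 to 9.36 in control mice (median 9.28) and from 9.29 to 9.45 in ATF4 mKO mice (median 9.35). All 8 ATF4 mKO mice lay above the control mean, and the groups overlapped between 9.29 and 9.36. The change was 0.08, or 1.06-fold (SE 0.03, 95% interval 0.03 to 0.14), with a limma adjusted p = 0.695 over all probes. The other 2 probes did not follow it. ILMN_2427560 had a change of 0.01 and ILMN_1259162 a change of -0.00211, and r between Traf6 probes ran from -0.33 to -0.09, so no pair of Traf6 probes correlated positively in either genotype.

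**Figure D2:**
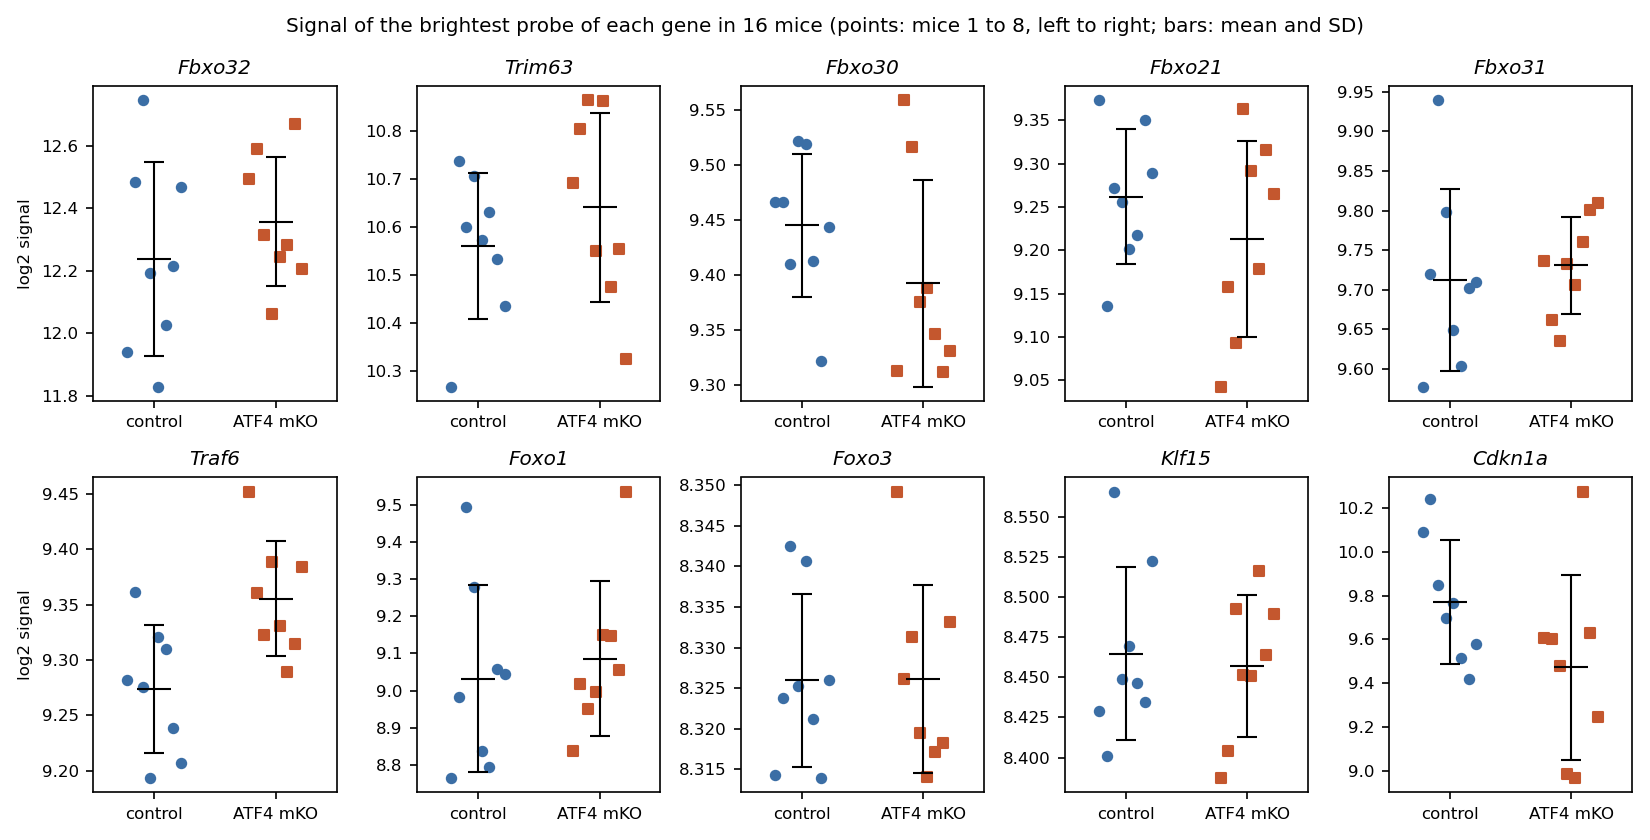
Log2 signal of the brightest probe of each member gene in each of the 16 mice, with the mean and SD of each genotype (n = 8). The genotypes overlap in every panel, and the spread between mice of 1 genotype is widest for Fbxo32, Foxo1 and Cdkn1a.

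Foxo1, the FoxO factor that rises in fasting and glucocorticoid-treated muscle, ran on its 1 probe (ILMN_2656498) from 8.76 to 9.50 in control mice (median 9.01) and from 8.84 to 9.54 in ATF4 mKO mice (median 9.04). Control mouse 3 and ATF4 mKO mouse 8 were the highest of their groups. The change was 0.05 (SE 0.11, 95% interval -0.18 to 0.29, adjusted p = 0.986), and -0.01 without ATF4 mKO mouse 8. Foxo3, its closest relative in the control of autophagy and of Fbxo32, was at the floor on its 1 probe (ILMN_2690574, mean 8.33 in both genotypes), so a change in it would be compressed. Klf15 encodes a zinc finger factor that raises branched-chain amino acid breakdown. Its probe (ILMN_1235255) was close to the floor, from 8.40 to 8.57 in control mice and from 8.39 to 8.52 in ATF4 mKO mice, with a change of -0.01 (SE 0.02, adjusted p = 0.992).

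Cdkn1a had the largest change of any member, toward lower signal in ATF4 mKO mice, and it did not pass the test. Probe ILMN_2634083 ran from 9.42 to 10.24 in control mice (median 9.73) and from 8.97 to 10.27 in ATF4 mKO mice (median 9.54). The lowest 3 of all 16 mice were ATF4 mKO mice 5, 4 and 8, and the highest was ATF4 mKO mouse 6, so the groups overlapped because of that mouse at the top and across the middle. The change was -0.30, or 0.814-fold (SE 0.17, 95% interval -0.66 to 0.06), with a limma adjusted p = 0.894. In 7 of 8 ATF4 mKO mice the signal was below the control mean. With any 1 mouse left out the change ran from -0.41, without ATF4 mKO mouse 6, to -0.22. The limma adjusted p ran from 0.702 to 0.968.

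The other Cdkn1a probes had changes of -0.19 (ILMN_2846775, 95% interval -0.44 to 0.05, adjusted p = 0.894) and -0.11 (ILMN_2846776, 95% interval -0.20 to -0.01, adjusted p = 0.841). The dimmest of the 3, ILMN_2846776, was the one with an unadjusted limma p under 0.05. Pairs of the 3 probes correlated between mice at r from 0.96 to 0.98 in control mice and from 0.90 to 0.96 in ATF4 mKO mice. They read the same RNA in the same mice and are not separate evidence of a change. A signal near the floor understates a change, which bears most on the dimmest probe.

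The other genes of these pathways were taken as 5 lists, each gene by its brightest probe, and 0 of the 71 genes measured were called in either direction, with 8 at an unadjusted p under 0.05, against 5.62% of all probes. Of other ubiquitin ligases and their machinery, 20 of 29 listed genes were measured, and their median change was 0.00139. The E2 enzyme gene Ube2g1 had a change of 0.17 (SE 0.05, adjusted p = 0.695), the HECT ligase gene Wwp1 0.10, the HECT ligase gene Nedd4l 0.06, and Skp1, which links F-box proteins to their cullin, -0.12. Of FoxO partners and targets, 17 of 17 were measured, 7 of them under 8.5, and the median change was -0.00328. Eif4ebp1, an inhibitor of cap-dependent translation that is also a known ATF4 target, went from 11.19 ± 0.21 to 10.94 ± 0.13 (SD, n = 8 each), a change of -0.25 (SE 0.08, limma adjusted p = 0.723). The autophagy gene Gabarapl1 had a change of -0.08, and Foxo4 and Foxo6 were at the floor, both with changes of 0.01.

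Of p53 and p21 genes, 14 of 17 were measured, with a median change of 0.00304. The p53 targets Ccng1 and Mdm2 both had a change of 0.07 (adjusted p = 0.850 and 0.879), the opposite sign to Cdkn1a, and Cdkn2b and Sesn2 had changes of 0.03 and 0.01. Of glucocorticoid and KLF15 genes, 11 of 12 were measured, 9 of them with higher means in ATF4 mKO mice and a median change of 0.04, and 0 had an unadjusted p under 0.05. Klf9 had a change of 0.14, Tsc22d3 (GILZ) 0.09 and the proline dehydrogenase gene Prodh 0.04. The metallothionein gene Mt1 had a change of -0.17 and an SD of 0.43 in control mice against 0.16 in ATF4 mKO mice. Of TRAF6 and NF-kappaB genes, 10 of 13 were measured, with a median change of 0.00910. Tab2, the adaptor between TRAF6 and its kinase, had a change of 0.21 (SE 0.07, adjusted p = 0.695), the NF-kappaB subunit Rela 0.07 (adjusted p = 0.811), and Il6ra and Irak1, at the floor, 0.02 and 0.01.

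Whether the genes moved together between mice was asked inside each genotype, so that the difference between genotypes could not make a correlation. Each of 45 pairs was tested over 8 control mice and over 8 ATF4 mKO mice by the exact permutation test of Pearson's r, with p adjusted over 90 tests. In control mice 26 pairs were positive and 19 negative, with a median r of 0.10, 4 had an unadjusted p under 0.05 and 1 was called at an adjusted p of 0.05. In ATF4 mKO mice 17 were positive and 28 negative, with a median r of -0.07, 5 had an unadjusted p under 0.05 and 0 were called. With Spearman's rho 0 pairs were called in either genotype. The same counts for pairs of other genes on the array were not computed, so whether these counts are particular to the members is not known.

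**Figure D3:**
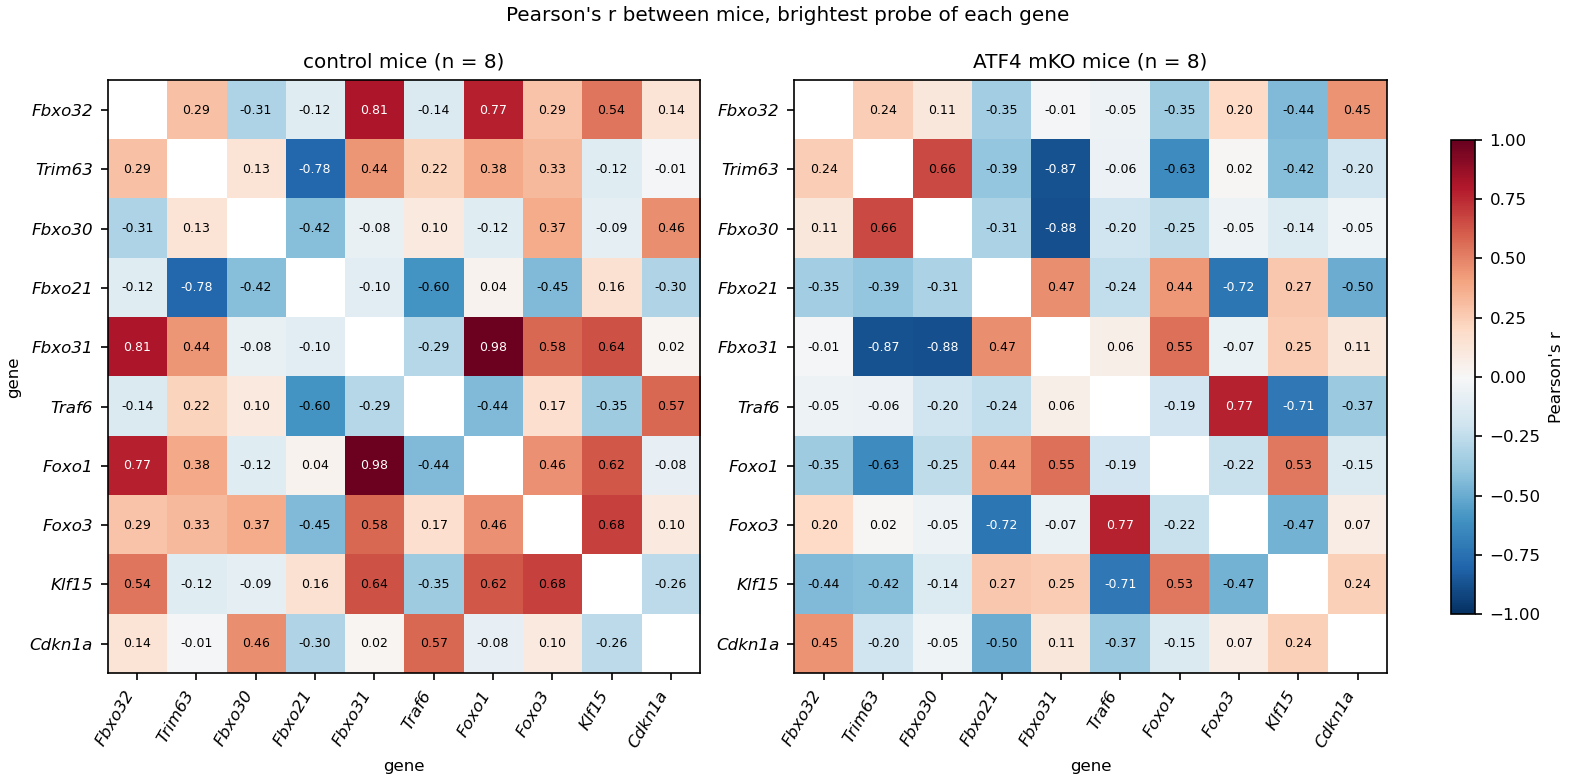
Pearson's r between the brightest probes of each pair of member genes, over 8 control mice (left) and 8 ATF4 mKO mice (right), on a colour scale from -1 to 1. Fbxo32, Fbxo31 and Foxo1 have r from 0.77 to 0.98 with each other in control mice, and the darkest blue cells of ATF4 mKO mice are those of Fbxo31, at -0.87 with Trim63 and -0.88 with Fbxo30.

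The called pair was Fbxo31 and Foxo1. In control mice both were highest in mouse 3 (9.94 for Fbxo31 and 9.50 for Foxo1), next in mouse 4 (9.80 and 9.28), and lowest in mouse 1 (9.58 and 8.76). Pearson's r was 0.98 (exact permutation p = 0.000223, adjusted p = 0.0201) and Spearman's rho was 0.90 (exact permutation p = 0.00456, adjusted p = 0.321). Leaving out mice 3 and 4, the farthest from the median of Foxo1, r was 0.94 (exact permutation p = 0.0278), and leaving out mice 1 and 3, the farthest on Fbxo31, it was 0.96 (exact permutation p = 0.00833). The second Fbxo31 probe had r = 0.78 with Foxo1. With any 1 control mouse left out r was 0.97 to 0.99, while the adjusted p ran from 0.0357 to 0.161, and the call was lost without control mouse 1, 3, 4, 5, 6 or 8.

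In ATF4 mKO mice the same pair had r = 0.55 (exact permutation p = 0.155, adjusted p = 0.774, rho = 0.50). Its r was 0.07 without mice 3 and 8, the farthest on Fbxo31, but 0.51 without mice 1 and 8, the farthest on Foxo1. The second Fbxo31 probe had r = -0.19 with Foxo1 there. Fbxo31 also spread less in ATF4 mKO mice, with an SD of 0.06 against 0.12. The difference in correlation between the genotypes, tested by exact permutation of genotype over 12870 arrangements, had p = 0.00435 before and 0.0979 after adjustment over 45 pairs, short of the 0.05 threshold.

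Fbxo32 had its highest correlations in control mice with the same genes, short of the threshold after adjustment, at r = 0.81 with Fbxo31 (exact permutation p = 0.0131, adjusted p = 0.295; rho = 0.79) and r = 0.77 with Foxo1 (exact permutation p = 0.0238, adjusted p = 0.316; rho = 0.69). Without control mice 3 and 5, the farthest on Fbxo32, the values were 0.64 and 0.49. Without the mice farthest on the other gene they were 0.52 for Fbxo31 (mice 1 and 3) and 0.81 for Foxo1 (mice 3 and 4). Over all 8 ATF4 mKO mice r of Fbxo32 was -0.01 with Fbxo31 and -0.35 with Foxo1. The value with Fbxo31 depended on the probe. With the second Fbxo31 probe the 3 Fbxo32 probes had r = 0.78, 0.76 and 0.60 in control mice and 0.54, 0.50 and 0.18 in ATF4 mKO mice. The 3 Fbxo32 probes, which read the same RNA, gave the same picture with Foxo1. They had r = 0.77, 0.81 and 0.83 in control mice and -0.35, -0.24 and -0.06 in ATF4 mKO mice. The difference between the genotypes for Fbxo32 with Foxo1 had p = 0.0430 before and 0.484 after adjustment in the same permutation of genotype.

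Control mouse 3 was the highest control at 9 of 18 member probes. These were the probes of Fbxo32, Fbxo31, Foxo1, Foxo3 and Klf15 and the dimmer Fbxo30 probe. Several of them read the same RNA, and those of Foxo3, Klf15 and Fbxo30 were at or near the floor. The share of all probes at which this mouse was highest was not computed. Mouse 3 also stood apart on the second principal component of the arrays (8.89, other control mice at most 3.49). The 3 erythroid markers averaged 11.36 in that mouse, against 10.15 to 10.48 in the other control mice and 9.88 to 10.63 in ATF4 mKO mice, and no erythroid marker was near the floor. The 5 fibroblast markers, 1 of them near the floor, averaged 9.58 in it, against 9.78 to 10.02 in the other control mice and 9.77 to 9.98 in ATF4 mKO mice. On the glucocorticoid and KLF15 genes mouse 3 averaged 10.60, the highest of all mice by a narrow margin. The other control mice averaged 10.26 to 10.55 and the ATF4 mKO mice 10.31 to 10.59. Without mouse 3, r of Fbxo31 and Foxo1 was 0.97, while r of Fbxo32 was 0.62 with Fbxo31 and 0.56 with Foxo1. Beyond that, the part of blood, fibroblasts or glucocorticoid genes in these relations was not tested.

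**Figure D4:**
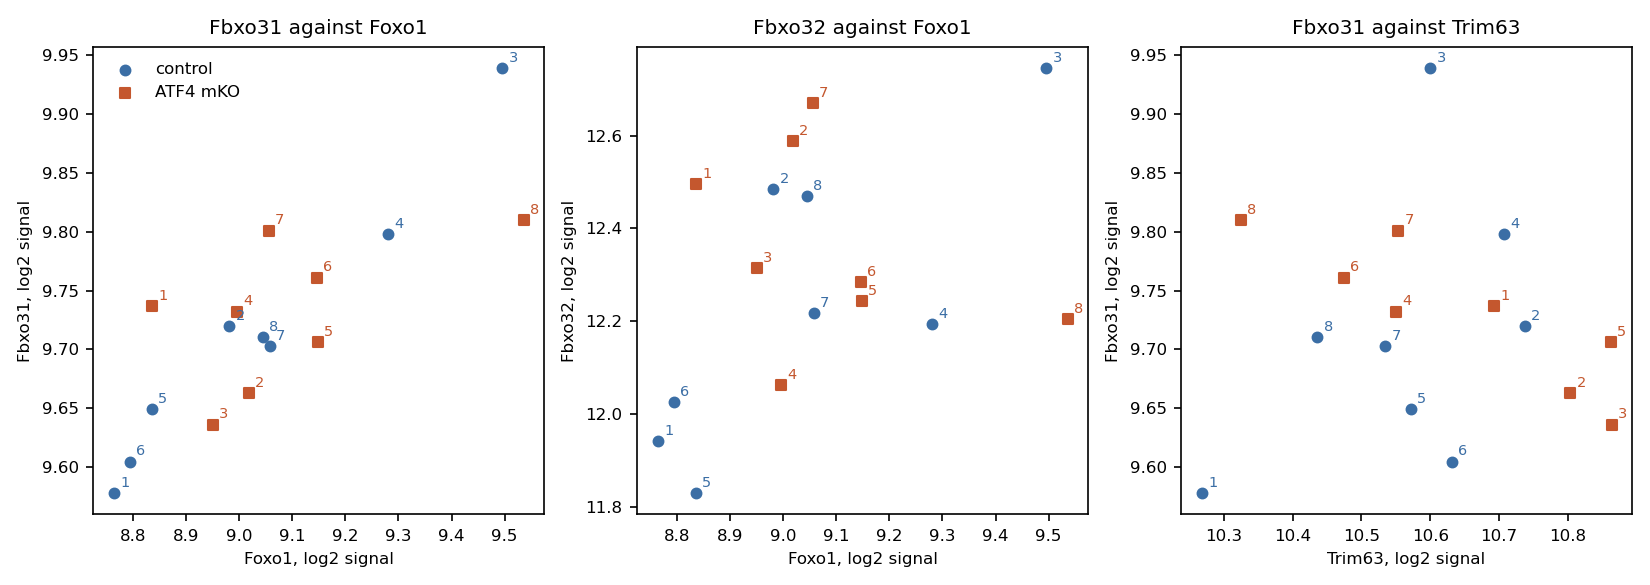
Log2 signals of Fbxo31 against Foxo1, Fbxo32 against Foxo1, and Fbxo31 against Trim63, 1 point per mouse with its number, control mice as blue circles and ATF4 mKO mice as red squares. Fbxo31 and Foxo1 lie near a line in control mice (r = 0.98) and scatter more in ATF4 mKO mice (r = 0.55), and Fbxo31 falls as Trim63 rises in ATF4 mKO mice (r = -0.87, not called).

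The other positive pairs among the top 6 of control mice involved Klf15, and none was called. Its r was 0.68 with Foxo3, 0.64 with Fbxo31 and 0.62 with Foxo1 (exact permutation, adjusted p = 0.490, 0.612 and 0.612). Without mice 3 and 8, the farthest on Klf15, the values were 0.57, -0.10 and -0.05. Without the mice farthest on the other gene, mouse 3 always among them, they were 0.42, -0.07 and 0.22. Both Klf15 and Foxo3 sat at or near the floor. The lowest pairs in control mice all held Fbxo21, with r = -0.78 for Trim63 (exact permutation p = 0.0206, adjusted p = 0.316; rho = -0.81), -0.60 for Traf6 and -0.45 for Foxo3. The r of Trim63 and Fbxo21 was -0.42 without mice 1 and 2, the farthest on both genes. With any 1 control mouse left out it ran from -0.85 to -0.65. Fbxo32 and Trim63, the classic pair of atrophy markers, had low correlations in both genotypes, with r = 0.29 in control mice (exact permutation p = 0.486, adjusted p = 0.940; rho = 0.31) and r = 0.24 in ATF4 mKO mice (exact permutation p = 0.556, adjusted p = 0.945; rho = 0.38).

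In ATF4 mKO mice the pairs with the smallest p were negative and held Fbxo31, and neither was called. Fbxo30 and Fbxo31 had r = -0.88 (exact permutation p = 0.00434, adjusted p = 0.187; rho = -0.86), and Trim63 and Fbxo31 had r = -0.87 (exact permutation p = 0.00623, adjusted p = 0.187; rho = -0.86). Mice 3 and 8 were at opposite ends. Mouse 3 had the highest Trim63 (10.86) and lowest Fbxo31 (9.64), and mouse 8 the lowest Trim63 (10.33) and highest Fbxo31 (9.81). Without them r was -0.76 for Trim63 (exact permutation p = 0.0722) and -0.86 for Fbxo30 (exact permutation p = 0.0194). Without mice 2 and 3, the farthest on Fbxo30, r of Fbxo30 and Fbxo31 was -0.69 (exact permutation p = 0.136). In control mice the same pairs had r = 0.44 for Trim63 and -0.08 for Fbxo30. The difference between genotypes had p = 0.00420 for Trim63 and 0.0127 for Fbxo30 in the permutation of genotype, with adjusted p = 0.0979 and 0.191. Of 45 differences, 0 passed. The second Fbxo31 probe had r = -0.42 with Trim63 and -0.58 with Fbxo30 in ATF4 mKO mice. The second Fbxo30 probe, at the floor, had r = 0.41 with the brighter Fbxo31 probe there.

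The third lowest pair of ATF4 mKO mice was Fbxo21 and Foxo3 (r = -0.72, exact permutation p = 0.0362). The top pair there was Traf6 and Foxo3 (r = 0.77, exact permutation p = 0.0246, adjusted p = 0.316), which fell to 0.29 without mice 1 and 6, with Foxo3 at the floor. The other Traf6 probes, ILMN_2427560 and ILMN_1259162, had the opposite sign with Foxo3 (r = -0.66 and -0.38). The next pairs were Trim63 and Fbxo30 (r = 0.66), Fbxo31 and Foxo1 (0.55), Foxo1 and Klf15 (0.53), and Fbxo21 and Fbxo31 (0.47). The second Fbxo30 probe, at the floor, had r = -0.45 with Trim63. In control mice r of Cdkn1a with the other 9 genes ran from -0.30 for Fbxo21 to 0.57 for Traf6. The other Traf6 probes had r = -0.26 and 0.08 with the same Cdkn1a probe. In ATF4 mKO mice its r was highest with Fbxo32 (0.45, exact permutation p = 0.267; rho = 0.67), and it was 0.94 without mice 5 and 6, the farthest on Cdkn1a, but 0.49 without mice 2 and 7, the farthest on Fbxo32. Over all pairs of Fbxo32 and Cdkn1a probes r ran from -0.08 to 0.45 there.

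The genes whose pattern between mice was most like that of a member were sought over all 16 mice after each genotype's mean was taken off, among 12113 other probes in the brighter part of the array. Being the best of so many, their r is a description only. For Foxo1 they were Mt1 (r = 0.91), the carbonic anhydrase gene Car14 (0.90) and Wbp1l (0.89), and within the genotypes Mt1 and Foxo1 correlated at 0.97 (control) and 0.95 (ATF4 mKO). For Fbxo32 they were Mrrf (0.82), H3c14 (0.82) and Pcbp1 (0.80). For Trim63 they were Atg16l1 (0.81), an autophagy gene, Kif22 (0.78) and Urah (0.77). For Cdkn1a they were the tubulin gene Tubb6 (0.89), Zfp738 (0.89) and Fbxl13 (0.84). None of these 12 genes was called between genotypes.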

How the data were processed

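RNA of 16 quadriceps muscles was hybridised by the authors to Illumina's Mouse Ref-8 arrays, 1 per mouse, and read with BeadStudio. The deposited values are log2 signals per probe in 1 table. The sources used here do not state background correction, normalization, software version or slide positions, so a slide effect cannot be told apart from genotype. Array medians lay between 8.378 and 8.381, and 65.7% of probes had a mean under 8.5, near the floor, where changes are compressed. Precision is limited by the number of arrays.

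Genotype and mouse number came from the sample labels. Of 25697 probes, 23978 had 1 gene symbol, 0 several and 1719 none in the platform annotation. The files name no genome build. RefSeq start regions of GRCm38.p6 were matched by symbol.

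Each probe was fitted in limma 3.58.1 (R 4.3.3) with lmFit and eBayes, two-sided, with Benjamini-Hochberg adjustment over all probes and a call at 0.1. Intervals are 95% intervals of limma. The methods' t-test was run at an unadjusted p of 0.025. Pairs of genes, by the brightest probe of each, were tested with Pearson's r and Spearman's rho over all 40320 pairings of 8 mice, two-sided. The permutations were run in NumPy 2.4.6, with ranks from SciPy 1.17.1. The test of the difference between genotypes, and r for every pair of probes, were added after seeing the data. The test of the difference compared Fisher-transformed r after each genotype's mean was removed. It is therefore approximate, and it does not allow for unequal spread in the genotypes. Both scripts were tested on simulated data.

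The members, gene lists and tests were chosen with earlier results of these data known. The text names every member probe, of each list the 4 genes with the smallest p, the 3 genes most like Fbxo32, Trim63, Foxo1 and Cdkn1a, the 6 highest and 3 lowest pairs of each genotype, and Atf4. Fbxo32 with Trim63 and the r of Cdkn1a were added after their values were seen. Same-numbered mice did not deviate together, and the labels do not give litters, so a part of litter in the correlations was not tested. Alternatives were other normalizations, priors, filters, weights, thresholds and left-out mice.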

Additional observations from a re-analysis of the deposited data

Results flagged for a closer look

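Of 36 groups of 8 mice (18 probes in 2 genotypes), 2 had a mouse whose gap to the next, as a share of the group's range, passed the 95% limit for 8 values, and chance gives about 1 in 20 such groups. Foxo1 was highest in ATF4 mKO mouse 8 at 9.54, with the next ATF4 mKO mouse at 9.15. Cdkn1a on probe ILMN_2846775 was highest in ATF4 mKO mouse 6 at 9.52, with the next at 9.03. ATF4 mKO mouse 6 was also the highest of its group on the other Cdkn1a probes, and the 3 probes read the same RNA.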

How the results depend on the processing

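Of the changes of member probes under alternatives, 441 kept their direction and side of the threshold, 24 changed sign and 1 passed it. The latter was Traf6 on ILMN_2960750 by the methods' t-test. By that test, at 0.025 before adjustment, 346 probes were lower and 387 higher on the whole array, member probes called higher numbered 1, and of the other pathway genes 1 was lower and 5 higher. Leaving out 1 mouse at a time gave ranges of -0.00113 to 0.0505 for Fbxo31 on ILMN_2687032, -0.00212 to 0.0654 on ILMN_1252057, -0.0117 to 0.00466 for Traf6 on ILMN_1259162, -0.0102 to 0.120 for Foxo1, -0.00316 to 0.00251 for Foxo3 and -0.0167 to 0.00679 for Klf15. With array weights the change was 0.00133 for Traf6 on ILMN_1259162 and -0.000346 for Foxo3, and with arrays centred on their medians it was -8.75e-05 for Foxo3. Without control mice 3 and 7 it was 0.000624 for that Traf6 probe and 0.00418 for Klf15. The causes were not tested.

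Probes called higher on the whole array numbered 3 without control mice 3 and 7, 2 with a trended and robust prior, 5 by the methods' t-test after adjustment, 5 at an adjusted p of 0.05, and 4 to 10 with 1 mouse left out. Same-numbered mice had correlations of deviations between -0.23 and 0.24, and the labels do not say whether the numbers follow litters. With the mouse number as a replicate block 14 probes were lower and 2 higher, and the block changed no call of a member.

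Called pairs in control mice numbered 0 with Spearman's rho, 0 with the mean of a gene's probes, 0 without control mice 3 and 7, and 0 to 1 with 1 mouse left out. For Fbxo31 and Foxo1 these gave values of 0.90, 0.91 (adjusted p = 0.230) and 0.97 (adjusted p = 0.250), in exact permutation tests. With 6 mice, 1 pair alone cannot go under an adjusted p of 0.125.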
